A study of Homo sapiens with 6 samples.

Results

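Intronic m6A peaks are the regions of the deposited peak list whose location class is Intron. They were chosen by that class alone, with no measured value, and they number 3744 of the 15940 peaks (23.5%, 95% Wilson interval 22.8 to 24.2). Introns were the second most frequent class after coding exons. The 3744 peaks lie in 2556 host genes, which are 28.7% of the 8906 genes named in the list.

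The study used TE-10, a human line from a squamous cell carcinoma of the esophagus. N6-methyladenosine (m6A) was mapped in TE-10 cells with normal METTL3, as 1 input library without antibody and 2 immunoprecipitated libraries whose antibodies have the catalogue numbers 202003 and 202004. Gene expression was measured by RNA-seq in 1 control library with normal METTL3 and in 2 libraries, here knockdown 1 and knockdown 2, of cells with a stable shRNA knockdown of METTL3. The titles of these 2 libraries end in sh1 and sh2, read here as 2 different hairpins. All 6 libraries were prepared from polyadenylated RNA, and whether the peaks were called on 1 or both immunoprecipitations is not given in the sources used here. No peak map of knockdown cells was analysed here. Nothing in the labels says that libraries came from separate cultures. The p-values therefore cover no more than the variation among these libraries, which could be technical or lie between the hairpins.

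m6A is the most abundant internal modification of mRNA. It is placed during transcription by a complex with METTL3 as its catalytic subunit, on pre-mRNA that still holds its introns, and is best known near stop codons and in 3' UTRs. Introns are normally removed in the nucleus, and an intronic peak in polyadenylated RNA lies in sequence that the annotated spliced transcript does not hold. Annotations differ in what they call an intron, since an exon of one transcript can lie inside an intron of another.

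A small group of hosts shows how far a peak can lie from the gene it is named for. Of the intronic peaks, 6 were assigned to 5 microRNA records, at 180709 to 360354 bases from the start of the record. For every one of these 5 records the peak was on another chromosome than the gene of that name in RefSeq (GRCh38.p14). The peak of MIR1256 was on chromosome 10 and the RefSeq gene is on chromosome 1. MIR3134 had its peak on chromosome 9 and its gene on chromosome 3. The 2 peaks of MIR548G were on chromosome 3 and its gene is on chromosome 4. MIR548H3 had its peak on chromosome 6 and its gene on chromosome 17. The mature microRNAs of the first 3 of these records are shown because they are the whole functional product of the named host. They are from RefSeq (GRCh38.p14), written 5′ to 3′, with the seed (bases 2 to 8, which pair with target mRNAs) in capitals.
hsa-miR-1256: aGGCAUUGacuucucacuagcu
hsa-miR-3134: uGAUGGAUaaaagacuacauauu
hsa-miR-548g-3p: aAAACUGUaauuacuuuuguac
hsa-miR-548g-5p: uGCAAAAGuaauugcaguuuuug
No 2 of these seeds are the same, and each mature sequence is 22 or 23 bases long, where the narrowest intronic peak is 199 bases wide. These peaks are counted among the members and are not read as peaks of the microRNAs named. Over all hosts the mismatch was rare: of 2408 hosts whose symbol was found in RefSeq, 11 had a peak on another chromosome, ASMT, ASMTL-AS1 and DHRSX among them because they were listed on Y.

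Intronic peaks were narrow. Their median width was 279 bases (quartiles 218 and 403), against 356 bases for coding-exon peaks, 349 for 3' UTR peaks and 246 for 5' UTR peaks. The list has a lowest width of 199 bases, and 246 intronic peaks (6.57%) had exactly that width, against 2.28% of coding-exon, 2.25% of 3' UTR, 4.89% of 5' UTR and 6.08% of upstream peaks. At the other end, 104 intronic peaks (2.78%) were 1000 bases or wider, against 5.25% of coding-exon peaks. All peaks come from 1 list without replicates, so these shares have no test over samples. Their intervals cover counting error only.

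**Figure D1:**
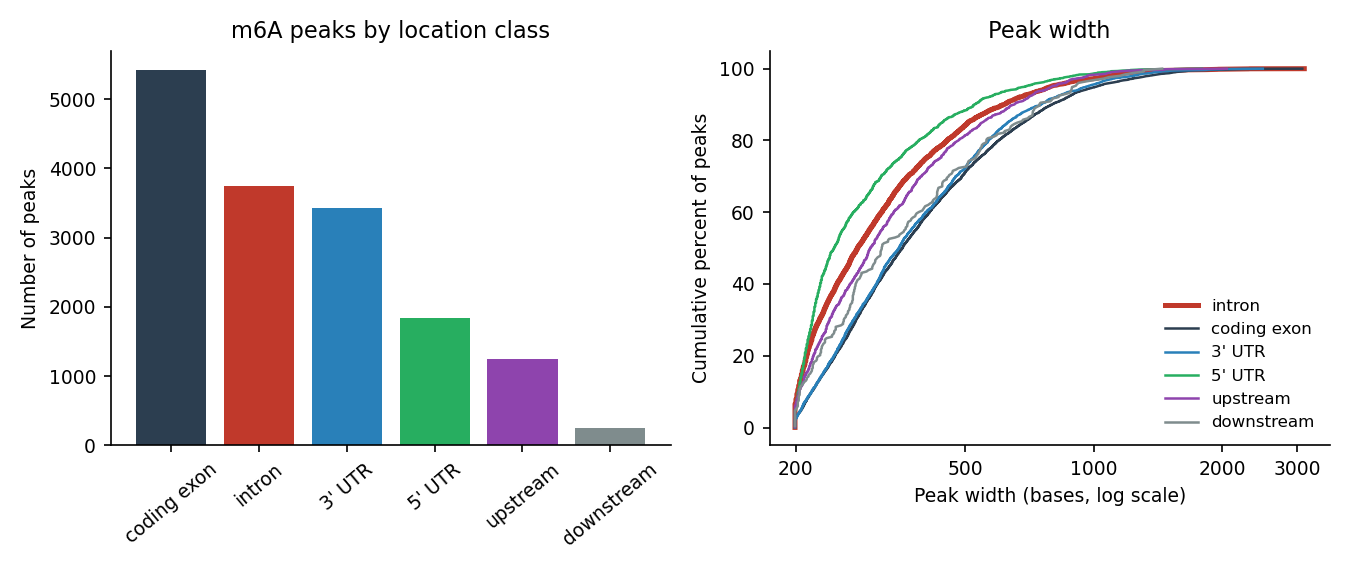
Number of m6A peaks in each location class (left, bars from 0) and cumulative percent of peaks by width in bases on a log scale (right, 1 line per class). The 3744 intronic peaks are the second largest class, and their width curve (median 279 bases) runs left of that of coding exons (median 356 bases) and right of that of 5' UTRs (median 246 bases).

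The widest intronic peak covered 3120 bases of TPPP, which encodes a protein that promotes tubulin assembly (chromosome 5, 667273 to 670393). The next widest were in DHRSX, at 2322 bases on chromosome X and 2309 on chromosome Y. Then came TGIF1, a homeodomain repressor of TGF-beta signalling (2266 bases), and CCDC57 (2143 bases). Of the peaks at the lowest width of 199 bases, those with the most highly expressed hosts were in UBE2L3, a ubiquitin-conjugating enzyme (320.01 in the control library), and ITGB1, the beta-1 integrin subunit (301.05). XRCC6, the Ku70 subunit of the DNA end-joining machinery, followed at 274.88, then the heat shock factor HSF1 at 103.18 and TH1L, a subunit of the elongation factor NELF, at 83.08. These levels are the deposited expression values, whose unit is not stated.

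Peaks of DHRSX and ASMT were listed under both X and Y, except 1 of the 3 DHRSX peaks on X. Both genes lie in the pseudoautosomal region, where X and Y carry the same sequence. The annotated starts on X and Y differ by 50000 bases, and after that shift the 2 pairs of ASMT peaks share 213 and 1140 bases and the 2 pairs of DHRSX peaks share 2301 and 222 bases. Methylation of the X copy and of the Y copy cannot be told apart in these 4 pairs.

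Intronic peaks lay far from annotated starts, about as far as coding-exon peaks did. The list gives each peak's distance from the start of its transcript to the peak's middle, and the median was 13672 bases for intronic peaks (quartiles 3130 and 42096), 16290 for coding exons, 22079 for 3' UTRs and 138 for 5' UTRs. A minority sat just inside the gene: 543 intronic peaks (14.5%, interval 13.4 to 15.7) were within 1000 bases of the start, against 10.1% of coding-exon and 6.95% of 3' UTR peaks. Within 250 bases there were 167 (4.46%). At the far end, 427 peaks (11.4%) were more than 100000 bases from the start.

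**Figure D2:**
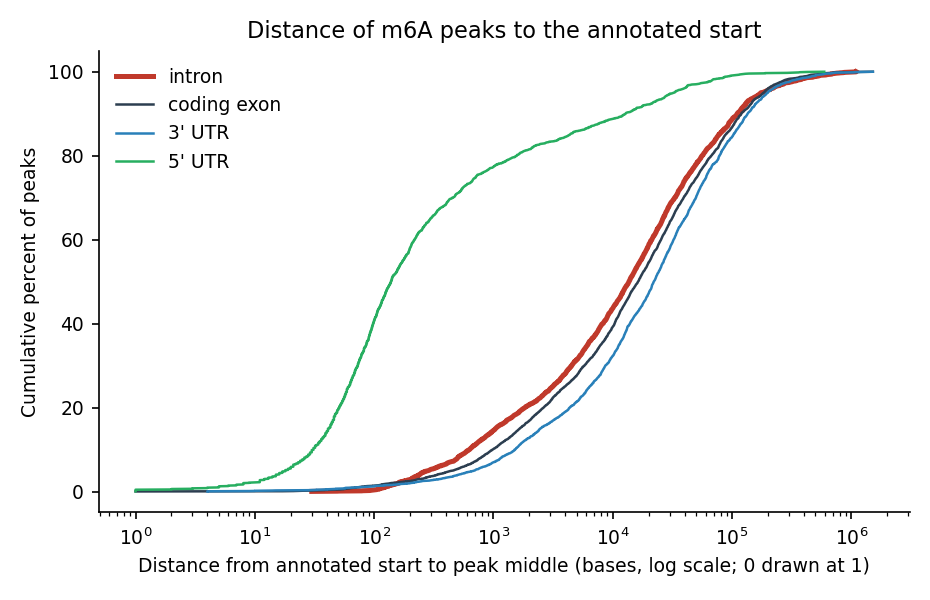
Cumulative percent of peaks by distance in bases from the annotated transcript start to the peak middle, on a log scale, 1 line each for intron, coding exon, 3' UTR and 5' UTR. The intronic line (median 13672 bases) lies close to that of coding exons (median 16290) and far right of 5' UTRs (median 138).

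Peaks near the start had the more highly expressed hosts. The median control level of hosts was 15.8 for peaks within 1000 bases, 10.7 for those farther and up to 10000 bases, 6.95 for those from there to 100000 bases and 3.81 beyond that. Widths moved less: the medians over the same 4 distance ranges were 257, 287, 287 and 267 bases.

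The nearest intronic peak to a start was in TRAPPC8, a subunit of a membrane-trafficking complex, at 30 bases (chromosome 18, 29522926 to 29523212). It was followed by SSBP1, the mitochondrial single-stranded DNA-binding protein, at 45 bases, NUBP1, an iron-sulfur cluster assembly factor, at 49, the T-box factor TBX6 at 51 and the checkpoint protein ATRIP at 72. These distances run to the peak's middle, so each of these 5 peaks also covers the start itself. The 5 farthest peaks belonged to only RUNX1 and AUTS2. RUNX1, a runt-domain transcription factor, had peaks at 1097245, 1093508 and 1016616 bases, and AUTS2, a component of a Polycomb complex, at 1095926 and 997557.

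Most hosts had a single intronic peak. That was so for 1857 of 2556 hosts (72.7%), and 699 hosts (27.3%, interval 25.7 to 29.1) had more than 1. There were 437 hosts with 2, 151 with 3, 67 with 4 and 44 with 5 or more, and the last group held 292 peaks. Peaks of 1 host were often close together: of 1185 gaps between neighbouring intronic peaks of a host, 568 (47.9%) were within 1000 bases, and the median gap was 1208 bases. The median control level was lower in hosts with more peaks, at 9.77 for 1 peak, 7.98 for 2, 7.46 for 3, 6.78 for 4 and 3.16 for 5 or more.

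**Figure D3:**
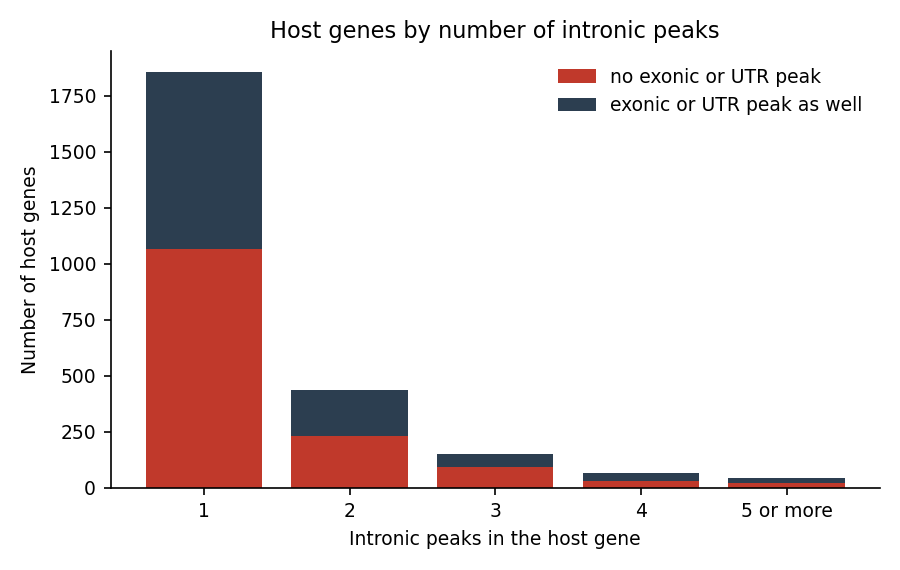
Number of host genes (vertical axis) by how many intronic peaks they hold (horizontal axis), divided into hosts with no exonic or UTR peak (red) and hosts with one as well (dark). Hosts with a single intronic peak make up 1857 of 2556, and in every column except 4 and 5 or more the red part is the larger.

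The host with the most intronic peaks was NPIPL1, a member of a duplicated gene family of chromosome 16, with 18 peaks from 28503149 to 28947908. They lay 468001 to 912559 bases from the annotated start, no exonic or UTR peak was listed, and the gene was not found in the expression table. Reads of near-identical copies could be placed at more than 1 of them, so its count is uncertain. LOC541471, a non-coding RNA gene, followed with 12 peaks on chromosome 2 (111980644 to 112125245), 127667 to 271767 bases from its start. It was not in the expression table either.

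AHNAK came next with 11 intronic peaks. It encodes a giant scaffold protein, nearly all of it within a single large exon. In the list its peaks are assigned to 1 transcript, described as variant 2, they run from 62284902 to 62314071 on chromosome 11, and the class Intron was given to all 11, with 1 further peak upstream and none in an exon or UTR. Of the 11 peaks, 10 lay 13046 to 29322 bases from the start and 1 lay at 445 bases. The AHNAK level was 30 (control), 25.25 (knockdown 1) and 18.49 (knockdown 2), so both knockdown libraries were below the control. Which exons the assigned transcript holds was not tested, as no gene models of the files' build were used.

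YY1AP1, a coactivator that binds YY1, had 10 intronic peaks and 1 in a coding exon. Its levels were 30.09, 35.11 and 31.65 in the control, knockdown 1 and knockdown 2. In RefSeq its span overlaps that of DAP3, which was at 55.31 in the control and had no peak under its own name. Whether the YY1AP1 peaks lie in the shared part was not tested. SHANK2, a scaffold of the postsynaptic density, had 9 intronic and 3 coding-exon peaks over a span of 593352 bases, at levels of only 1.46, 1.06 and 0.63. MORN1 had 9 intronic peaks and no other, at 1.88, 1.75 and 2.61. Hosts with 8 were CCDC57, CIDEC (a lipid droplet protein), FAM211A (now LRRC75A), RTDR1 (now RSPH14, a protein of the ciliary radial spoke) and the unmatched record BC041856. The last is left out of the 10 with the most peaks, since ties went by control level, and it had 2 5' UTR peaks. Of these 10 hosts, 6 had no exonic or UTR peak. They were NPIPL1, LOC541471, AHNAK, MORN1, CIDEC and RTDR1. The CIDEC peaks spanned 96388 bases, 39353 to 135506 bases from its start. Its peak at 10028344 to 10028591 on chromosome 3 was 127 bases from the start of AX747493, on the opposite strand. Whether all CIDEC peaks lie inside that gene was not tested. PDE4DIP, a centrosome and Golgi anchor, with 7 peaks, and ZNF397, A1BG and LMF1, with 6 each, came next among hosts with no exonic or UTR peak. C14orf182 and LOC441242, which are not in the expression table, also had 6 and no exonic or UTR peak.

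Most hosts had no peak in an exon or UTR. An exonic or UTR peak was present as well in 1113 hosts (43.5%, interval 41.6 to 45.5) and absent in 1443 (56.5%), which held 2084 of the intronic peaks (55.7%). At a control level of 1 to under 10, 53.3% of matched hosts had an exonic or UTR peak, beside 51.5% of all genes. From 10 to under 100 the shares were 49.8% and 47.2%, and under 1 they were 23.8% and 11.1%. They were 14.3% and 22.9% from 100 to under 1000, and 0% and 5.94% at 1000 or more. Of all hosts, 633 (24.8%) also had a coding-exon peak, 494 (19.3%) a 3' UTR peak and 258 (10.1%) a 5' UTR peak, and 15 had all of them. A total of 1342 hosts (52.5%) had intronic peaks and nothing else, upstream and downstream regions included.

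Where a host had both, the order of the peaks along the gene was counted. A 3' UTR peak lies at the end of the transcript, and 494 of the 1113 hosts with both had such a peak. The order is thus partly set by the annotation, and no baseline was computed. Of 1660 intronic peaks in such hosts, 998 (60.1%) were nearer to the start than every exonic or UTR peak of the gene, 285 (17.2%) lay between them and 377 (22.7%) lay beyond the last. The median gap to the nearest exonic or UTR peak was 10800 bases, and 225 peaks (13.6%) had one within 1000 bases. That nearest peak was in a coding exon for 853 (51.4%), in a 3' UTR for 510 (30.7%) and in a 5' UTR for 297 (17.9%). Among hosts with both, 225 of 1113 (20.2%) had more intronic than exonic and UTR peaks.

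The type of the host record also differed by class. Among peaks assigned to non-coding RNA records, 369 of 1078 (34.2%, interval 31.5 to 37.1) were intronic, against 3211 of 14067 (22.8%, interval 22.1 to 23.5) assigned to mRNA records. FTX, a long non-coding RNA of the X-inactivation centre, had 4 intronic peaks and no other, 89936 to 132182 bases from its start. MIR22HG, the host transcript of miR-22, had 1 intronic peak, and LINC00963 had 1 beside 2 in its 3' UTR class. These 3 were the intronic hosts among 11 of 22 listed long non-coding RNAs that had any peak. None of the 3 was found in the expression table. Of 25 small nucleolar RNA host genes, which carry snoRNAs in their introns, 1 had a peak of any class and none had an intronic one. Of all genes in the peak list 28.7% were intronic hosts, and a single gene with a peak is too few to set against that share.

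The median host had a higher expression value than the median gene of the table in all 3 libraries. Of the 2556 hosts, 2223 were matched to the expression table, 2060 by the symbol as written and 163 by an older symbol, and 333 hosts with 521 peaks were not. The median level of hosts was 8.83 (control), 8.45 (knockdown 1) and 8.41 (knockdown 2), over 2222 different table entries. Over all 18224 named genes of the table it was 3.53, 3.40 and 3.83. Hosts without an exonic or UTR peak had a control median of 8.25 (1205 genes) and hosts with one 9.22 (1017 genes). Genes with an exonic or UTR peak and no intronic peak had a control median of 7.12 (5201 genes), and genes with no peak 0.62 (10447 genes). The list gives no read depth per peak, and the part of depth in these medians was not tested.

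Genes with intronic peaks were found across all levels of expression, with the largest share in the middle. The share of genes with an intronic peak was 4.46% under a control level of 1, 15.9% from 1 to under 10, 17.9% from 10 to under 100, 14.1% from 100 to under 1000 and 5.94% at 1000 or more (6 of 101 genes). The share with an exonic or UTR peak was 11.1%, 51.5%, 47.2%, 22.9% and 5.94% over the same ranges. Intronic hosts with an exonic or UTR peak as well were 53.3% of hosts from 1 to under 10 and 49.8% from 10 to under 100. From 100 to under 1000 they were 14.3% (16 of 112, interval 8.99 to 21.95), and at 1000 or more 0 of 6 (interval up to 39.0%).

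**Figure D4:**
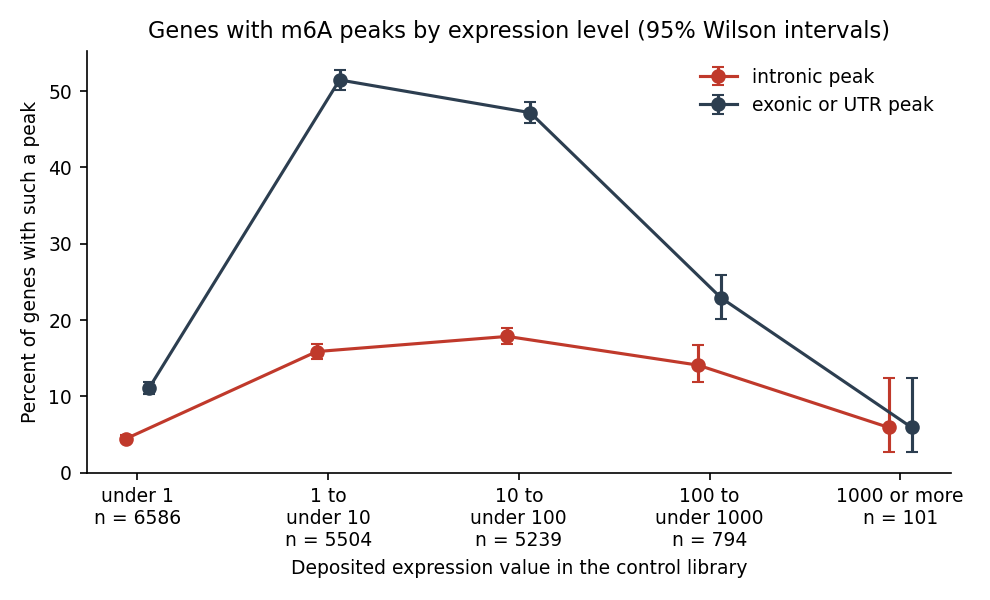
Percent of genes with an intronic peak (red) and with an exonic or UTR peak (dark) by the deposited expression value in the control library (n genes under each range), with 95% Wilson intervals. Exonic peaks drop from 51.5% to 22.9% of genes between the range from 1 and the range from 100, while intronic peaks stay between 14.1% and 17.9%, and both are at 5.94% at 1000 or more.

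The most highly expressed hosts were ribosomal protein genes with a lone intronic peak. RPS15A, of the small ribosomal subunit, had values of 2697.94 (control), 2646.72 (knockdown 1) and 3306.65 (knockdown 2). Its peak of 210 bases lay 126 bases from the start (chromosome 16, 18801425 to 18801635). RPL4, of the large subunit, was at 2524.08, 2386.1 and 3103.92, with its peak 15852 bases from the start. That was the largest distance among the ribosomal protein hosts, and whether the peak lies inside the usual RPL4 transcript was not tested. RPL30, RPL26 and RPL28 followed at 2077.64, 1748.48 and 1636.97 in the control, with peaks at 330, 164 and 1700 bases.

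PKM2 (now PKM), the glycolytic enzyme pyruvate kinase, was at 1292.42, 1505.4 and 849.54, with a peak 648 bases from the start. RPL31 and COX6A1, a subunit of cytochrome c oxidase, completed the 8 hosts with the highest control level, at 946.56 and 853.4. None of the 8 had an exonic or UTR peak. Of 12 ribosomal protein genes with any peak, 8 were intronic hosts, beside 28.7% of all genes in the peak list. At a control level of 1000 or more, 5.94% of all genes had an intronic peak and 5.94% an exonic or UTR peak. These 12 genes are few, and their share was not tested. RPL7L1, a ribosomal-like gene at 53.8 in the control, was the 1 of these 8 ribosomal hosts with another peak, in its 3' UTR. Ribosomal protein genes have many processed pseudogenes and snoRNAs in their introns, and reads of near-identical copies could not be separated here. Members of the zinc finger ZNF family gave the contrast of a low-expressed group: 79 were intronic hosts with 118 of the family's 699 peaks (16.9%) and a median control level of 3.08, and 49 of the 79 had an exonic or UTR peak as well.

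Intronic peaks were also listed in genes with almost no RNA-seq signal. A host is called silent here when its value was under 1 in the control and in both knockdown libraries. That was so for 239 of 2223 matched hosts (10.8%, interval 9.53 to 12.1), with 346 intronic peaks, and 6 of them were listed at 0 in all 3 libraries. Of all 18224 named genes of the table, 32.2% were silent. The silent share was 9.84% for genes with a coding-exon peak, 7.65% for those with a 3' UTR peak, 3.07% for those with a 5' UTR peak and 15.6% for those with a downstream peak. An exonic or UTR peak was listed as well in 43 of 239 silent hosts (17.99%, interval 13.6 to 23.4) and in 975 of 1984 other hosts (49.1%, interval 46.9 to 51.3). Over all genes of the table this share also depended on level. It was 11.1% under 1 in the control, 51.5% from 1 to under 10, 47.2% from 10 to under 100 and 22.9% from 100 to under 1000. More than 1 intronic peak was about as frequent in silent and in other hosts, at 26.8% and 27.02%. These shares come from 1 list and have no test over samples.

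Among silent hosts, RTDR1 had the most intronic peaks, 8 over 29605 bases of chromosome 22, at 0.13 (control), 0 (knockdown 1) and 0.22 (knockdown 2). PRR5-ARHGAP8, a read-through of neighbouring genes, had 7 intronic peaks and 1 in a coding exon at 0.2, 0 and 0.23. TPPP had 5 at 0.27, 0.11 and 0.95, so knockdown 2 was just under the threshold. ENKUR, an adaptor of sperm flagella and cilia, had 4 at 0.42, 0.31 and 0.39.

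MYH11, the smooth muscle myosin heavy chain, had 4 intronic peaks at 0.35, 0.31 and 0.36. IL4I1, a secreted amino acid oxidase, had 4 at 0.13, 0.09 and 0.11. ASMT, the last enzyme of melatonin synthesis, had 4 entries, the X and Y pairs above, and was listed at 0 in every library. KIAA1257 and KIAA1984 (now CCDC183) had 4 each. Apart from PRR5-ARHGAP8, the silent hosts named here had no exonic or UTR peak.

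Some silent hosts share their place with a gene that is expressed. RefSeq (GRCh38.p14) was used only to see which genes overlap. Whole gene spans were compared, and whether the peaks lie in the shared part was not tested. Of 237 silent hosts with a RefSeq position, 59 (24.9%, interval 19.8 to 30.8) overlapped a gene at 1 or more in the control, against 441 of 1967 other hosts (22.4%, interval 20.6 to 24.3). Among genes with no peak the shares were 586 of 4792 silent genes (12.2%) and 938 of 5216 others (17.98%). Genes on either strand were counted. A longer gene has more room for an overlap, and the sets were not matched for gene length. RTDR1 overlaps GNAZ at 1.12 in the control and BCR, the signalling protein of the Philadelphia translocation, at 22.42. MYH11 overlaps the centrosomal gene NDE1 at 37.74. IL4I1 overlaps the nuclear pore gene NUP62 at 29.82 and the stress factor ATF5 at 34.24, and SHC4 overlaps EID1 at 101.12. C2orf63, at 0.24, overlaps RPS27A, a ribosomal protein fused to ubiquitin, at 1124.1, and its intronic peak was 1334 bases wide. Of all genes at 1 or more that overlap a silent host, 30 of 74 (40.5%, interval 30.1 to 51.9) had a peak under their own name. Of the partners named here, BCR and ATF5 had such a peak, and GNAZ, NDE1, NUP62, EID1 and RPS27A had none.

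**Figure D5:**
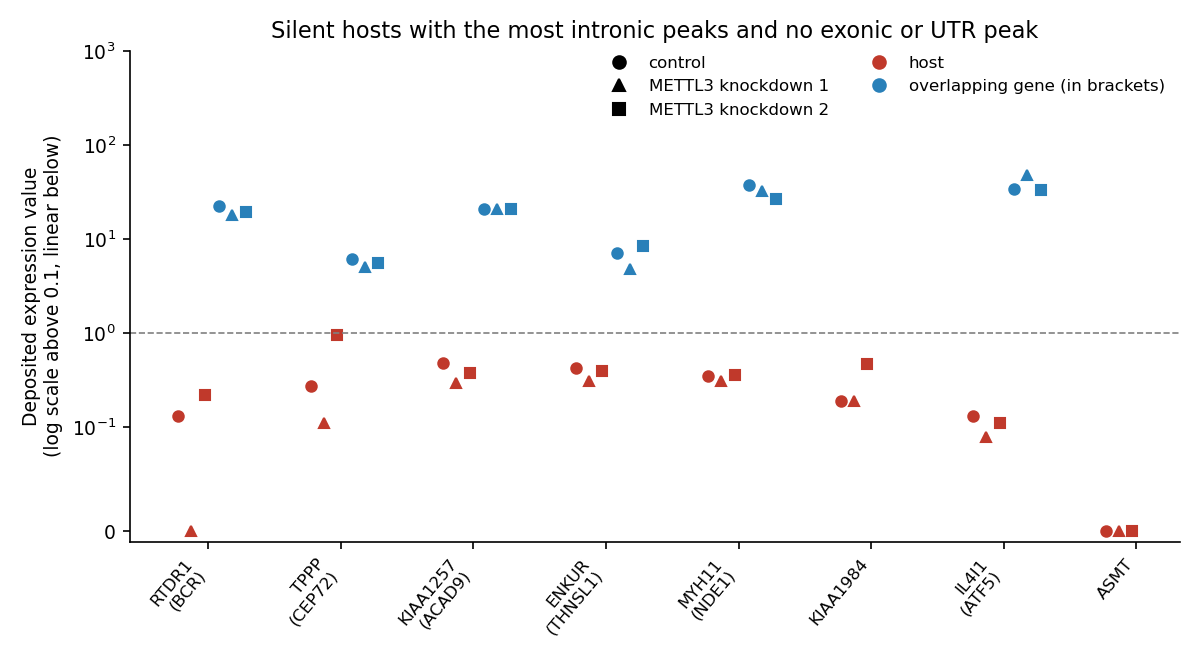
Deposited expression value (log scale above 0.1, linear below) of 8 silent hosts with many intronic peaks and no exonic or UTR peak (red), in the control (circle), knockdown 1 (triangle) and knockdown 2 (square). Blue markers show the overlapping RefSeq gene with the highest control value, where any is at 1 or more. The dashed line is the threshold of 1: every red marker is under it and every blue marker above it.

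The overlap was also compared over all hosts, silent or not. Some genes at 1 or more overlap a host without being a host. Of these, 208 of 526 (39.5%, interval 35.5 to 43.8) had a peak under their own name. Among genes at 1 or more that overlap no host and are not hosts, it was 4631 of 9104 (50.9%, interval 49.8 to 51.9). With hosts counted in, 338 of 656 overlapping genes (51.5%) had such a peak, and every host has a peak by definition. Each peak carries 1 gene name, so a peak in the overlap can count for only 1 of the overlapping genes. Within 1000 bases of the start of another listed gene lay 121 intronic peaks (3.23%), of which 104 were by a start on the opposite strand, against 1.29% of coding-exon peaks and 8.79% of 5' UTR peaks. Read-through records, which join neighbouring genes, were hosts in 24 cases with 41 peaks. Of the 21 matched, 11 were under 1 in the control, and in 19 at least 1 of the single genes was higher than the read-through. Whether these peaks come from the host or from its neighbour cannot be told apart in this list.

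Host genes were next grouped by function, from lists chosen with earlier results of these data known. The background is that 28.7% of all genes in the peak list were intronic hosts. The shares were 27.3% of splicing factor genes with a peak and 26.7% of squamous and growth factor genes, both near it, 12.5% of the writer complex, 12.5% of histone modifiers, 17.6% of Notch genes and 71.4% of readers and erasers. The lists hold few genes with a peak, and none of these shares was tested. Among the m6A writer complex 1 of 8 genes with a peak was an intronic host. It was WTAP, which targets the complex to nuclear speckles, with 1 intronic and 1 coding-exon peak, and levels of 40.76, 48.82 and 40.25 (control, knockdown 1, knockdown 2). Of 7 m6A readers and erasers with a peak, 5 were intronic hosts. IGF2BP1, IGF2BP2 and IGF2BP3, which bind and stabilise methylated mRNA, each had 1 intronic peak and no exonic or UTR peak. Their peaks lay 17199, 168895 and 55244 bases from the start. IGF2BP2 was well expressed at 73.77, 73.39 and 61.65, and IGF2BP1 was at 2.43, 3.94 and 10.42, with the highest value in knockdown 2. YTHDC1, the nuclear reader, and YTHDF2, the reader that promotes mRNA decay, had 1 intronic peak each beside exonic peaks.

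Of 17 Notch pathway genes with a peak, 3 were hosts. MAML1, the coactivator of the Notch complex, had 5 intronic peaks beside 2 in coding exons. RBPJ, its DNA-binding partner, had 1 at 329 bases from the start. HES2, a member of the HES repressor family, had 3 intronic peaks and no exonic or UTR peak, 6138 to 9013 bases from the start, at levels of 2.14, 0.92 and 2.2. Of 22 SR and hnRNP splicing genes with a peak, 6 were hosts and 5 of them had no exonic or UTR peak. The 5 were CLK1 and CLK3, kinases of SR proteins, LUC7L with 3 peaks, HNRNPLL with 2 and HNRNPUL1. CLK1 had its peak 207 bases from the start, and its levels were 13.44, 13.36 and 13.22 in the 3 libraries. It is known for a retained intron, and whether the peak lies in that intron was not tested.

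Of 32 histone modifiers with a peak, 4 were hosts. KDM4C, a histone H3 lysine demethylase, had 3 intronic peaks alone, and DOT1L, which methylates lysine in the core of histone H3, had 1. NSD1 and SETD1B, both histone methyltransferases, had 1 each beside several exonic ones. Of 15 squamous and growth factor genes with a peak, 4 were hosts, all with intronic peaks alone. EGFR, the epidermal growth factor receptor, had 2, at 733 and 1781 bases from the start (chromosome 7, 55087091 to 55087823 for the first). Its level was 20.87 (control), 14.32 (knockdown 1) and 6.42 (knockdown 2). The receptor ERBB2 and the laminin chain LAMA3 had 1 each, and the kinase AKT1 had 1 at 704 bases, at 253.86, 231.84 and 195.7. RAD51B, a homologous recombination gene, had 4 intronic peaks alone, 677569 to 863721 bases from its start.

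Far peaks were checked for the genes that lie on the way. Between the start of a host and its farthest intronic peak, peaks of another gene were listed in 62 of 2559 host records (2.42%). For hosts whose farthest peak was over 100000 bases away this was 21 of 274 (7.66%), with 605 of their own peaks inside and 77 of other genes. NEMF, which tags stalled nascent chains at the ribosome, had the most, 14 peaks of other genes between its start and its peak at 275234 bases. RUNX1, AUTS2, RAD51B and SHANK2 had none.

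METTL3 knockdown was compared with control over the hosts' RNA levels. METTL3 itself had values of 20.81 (control), 8.35 (knockdown 1) and 4.99 (knockdown 2), which is a log2 difference of -1.54 (SE 0.327) on the log2(value + 1) scale. The control is a single library, so the error is estimated from the difference between the 2 knockdowns. These carry different hairpins and were fitted as 1 group. By limma with Benjamini-Hochberg adjustment over 12375 genes, 0 genes (0%) passed 0.05, and 162 had an unadjusted p under 0.05. Of the 1983 hosts tested, 0 passed and 22 had an unadjusted p under 0.05. METTL3 did not pass either (limma adjusted p = 1.00).

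Levels of hosts were close to the control in both knockdown libraries. The median log2 difference of hosts was -0.02 in knockdown 1 and -0.05 in knockdown 2, beside -0.01 and 0.00 over all genes tested. For the mean of both libraries it was -0.06 in hosts with an exonic or UTR peak (974 genes) and -0.02 in hosts without one (1009 genes). Differences of at least 2-fold in knockdown 1 were seen for 14 hosts (0.706%), beside 0.646% of all genes, and in knockdown 2 for 44 hosts (2.22%), beside 4.62% of all genes. Both comparisons share the control library.

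At least 2-fold higher in both knockdown libraries were 0 hosts, beside 0.0323% of all genes tested (4), and at least 2-fold lower were 2, beside 0.097% (12). TPRG1, named as a p63-regulated gene, had levels of 14.22 (control), 3.83 (knockdown 1) and 3.39 (knockdown 2), a log2 difference of -1.72 (SE 0.253). Both knockdown libraries were below the control and close to each other. Its 1 intronic peak of 727 bases lay 77012 bases from the start (chromosome 3, 188741651 to 188742378). SPRR2A, a small proline-rich precursor of the cornified envelope, was at 17.09, 6.68 and 3.99, a log2 difference of -1.55 (SE 0.325). It had 3 intronic peaks, 28738 to 70650 bases from the start, and 1 5' UTR peak. SPRR2 genes are near-identical and lie side by side, so its values and peaks are uncertain. The limma adjusted p was 1.00 for both TPRG1 and SPRR2A.

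Markers of the labelled cell type were present. The squamous markers KRT5, KRT17 and S100A2 were at 633.07, 1171.05 and 1127.92 in the control, while PTPRC (blood) was at 0.17 and ALB (liver) at 0. In the control, knockdown 1 and knockdown 2, KRT14 was at 449.63, 357.39 and 210.86, TP63 at 31.89, 23.54 and 19.5, SOX2 at 160.64, 141.05 and 114.16 and DSG3 at 18.37, 18.18 and 7.93. These 4 were lowest in knockdown 2, as SPRR2A and TPRG1 were. KRT5, KRT17 and S100A2 were also lowest there, at 429.18, 749.17 and 703.5. VIM, a mesenchymal gene, was at 87.02, 88.05 and 311.17, so knockdown 2 stood apart, and genes at least 2-fold away from the control numbered 572 there and 80 in knockdown 1. The part of this in the hosts' values was not tested. Each hairpin has 1 library, so a difference between hairpins and a difference between libraries cannot be told apart.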

How the data were processed

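m6A peaks and RNA-seq levels of TE-10 cells were analysed. Alignment with TopHat2, counting with HTSeq and peak calling with MACS2 are named per the submitters' processing notes; for versions, parameters and pooling of the immunoprecipitations the sources used here say nothing. The deposited peak list gives each region's position, strand, gene, transcript, class and distance, with no score or q-value. The notes name hg38, but peaks reach position 249212571 on chromosome 1, beyond the last GRCh38 gene end at 248937099, so it is not read as hg38 and no sequence was read at peaks. The deposited expression table holds a signal per gene and library whose unit and scaling the authors do not state. Its columns sum to 608291, 617840 and 627152 in the control, knockdown 1 and knockdown 2, so depth is unknown. It lists 18249 rows, 25 with symbols turned into dates, which were left out.

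Hosts are the gene names of the peaks. Older symbols were followed through RefSeq (GRCh38.p14) where the chromosome agreed. Knockdown was compared with control by limma 3.58.1 (R 4.3.3; log2(value + 1), mean-variance trend, genes at 1 or more in at least 1 library, Benjamini-Hochberg at 0.05, 1 residual degree of freedom); this scale understates the change of low genes. Shares have 95% Wilson intervals covering counting error only. Counts and figures were made with pandas 2.3.3, scipy 1.17.1 and matplotlib 3.10.9 (Python 3.11.15, numpy 2.4.6).

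Named hosts are the 10 with the most intronic peaks, the 10 with the most and no exonic or UTR peak, the 10 silent hosts with the most, the 8 highest in the control, those at least 2-fold different in both knockdowns with a mean of at least 5, list members with an intronic peak, and the hosts of the 5 widest, narrowest, nearest and farthest peaks. The microRNA records, SHC4, C2orf63, the overlapping genes, ASMTL-AS1, RPL7L1 and NEMF fall outside this rule and were chosen after their values were seen, and 1 host that the rule names is not reported here. The members and lists were chosen with earlier results of these data known.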

Additional observations from a re-analysis of the deposited data

How the results depend on the processing

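Of the settings tried, all planned, and leaving out the counts of limma calls, 50 values were marked as unchanged and 19 as moved. Shares and median levels were held against an interval, and median log2 differences against the spread of the knockdown libraries. Counts of 2-fold hosts were held to a fixed ratio. TPRG1 and SPRR2A had only to keep their sign with no adjusted p under 0.05. Some settings could change nothing, such as counting repeated coordinates once, since there were 0. The share of intronic peaks near the start was 8.04% within 500 bases and 20.6% within 2000 bases. Joining intronic peaks of a host within 1000 bases lowered the share of hosts with more than 1 to 17.8%. Hosts with another peak were 37.8% when only coding exons and 3' UTRs counted and 47.5% when any other class counted. The silent share was 0.270% for hosts listed at 0 in all 3 libraries and 7.42% under 0.5, and leaving out 1 knockdown library gave 11.2% to 12.3%. Keeping only hosts at 1 or more in at least 1 library raised their median control level to 11.0. Limma called 0 genes and 0 hosts under each filter, pseudocount, scaling and variance setting tried, and since METTL3 itself did not pass, this is no sign of stability. With a pseudocount of 0.1, hosts at least 2-fold higher in both knockdown libraries numbered 3 and hosts lower numbered 6. With either knockdown library alone the counts were 4 and 27 higher and 10 and 17 lower, the larger ones in knockdown 2. At equal column sums the median log2 difference was -0.066 for hosts and -0.030 for all genes tested. The median for all genes was -0.012 at a mean of at least 5, and -0.014 to 0.00055 with 1 knockdown library left out. No paired analysis was possible because the control has 1 library, so the groups share fewer than 2 replicate numbers. The planned motif search was not run, since no genome of the files' build was used. The list has no replicates or peak scores, so peaks could not be ranked or weighted by strength.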

Other observations

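The share of peaks called intronic varied between chromosomes. Among chromosomes with at least 500 peaks it was 28.2% on chromosome 22 (153 of 543, interval 24.6 to 32.1) and 27.2% on chromosome 11 (210 of 771, interval 24.2 to 30.5), and 19.2% on chromosome 8 (108 of 562, interval 16.2 to 22.7) and 19.8% on chromosome 9 (124 of 627, interval 16.8 to 23.1). Of the chromosomes with fewer peaks, chromosome 18 had 28.8% (65 of 226, interval 23.3 to 35.0), chromosome 21 had 28.8% (51 of 177, interval 22.6 to 35.9) and Y had 6 of 15 (interval in percent 19.8 to 64.3). On unplaced contigs 8 of 16 peaks were intronic.

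Among the hosts tested against METTL3 knockdown, those with the smallest unadjusted limma p after TPRG1 and SPRR2A were TREX1, a cytosolic DNA exonuclease, at 15.33, 6.93 and 7.97 in the control, knockdown 1 and knockdown 2, and SLC6A9, a glycine transporter, at 3.38, 7.2 and 8.01. KRTDAP, a keratinocyte differentiation gene, was at 6.99, 2.18 and 3.13. GAL, the neuropeptide galanin, was at 19.59, 52.85 and 34.34, with both knockdown libraries above the control. ITGB1 was at 301.05, 176.87 and 149.23. None passed adjustment by limma (adjusted p = 1.00 for each), and they were chosen after their values were seen.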
